A study of Rattus norvegicus with 8 samples.

Results

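Most vertebrate promoters that lie in GC-rich sequence carry many CpG sites and are kept free of methylation, whereas the scattered CpG sites of the rest of the genome are mostly methylated. In MeDIP-chip, sheared DNA is precipitated with an antibody against 5-methylcytosine, and the ratio of bound over input DNA at a probe rises both with the share of its CpG sites that are methylated and with the number of sites around it. A low ratio can therefore come from unmethylated DNA or from DNA with few CpG sites, and the ratio is not a methylation percentage.

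The regions described here were 8081 runs of neighbouring array probes that combined many short probes with a low bound over input signal. They were chosen by measured values. Autosomal probes were joined into a run where gaps were at most 500 bp, and 20418 runs had at least 8 probes, out of 27757 runs of all sizes and chromosomes. A run was kept where at least 33.3% of its probes were shorter than 60 bp (tiling designs of this kind shorten their probes in GC-rich sequence) and where its level lay below the median of the 20418 runs, which was -0.1957. Level means the log2 ratio of bound over input signal after quantile normalization between arrays, averaged over the probes of a run. The selection averaged all 8 arrays, so that the levels given below for the runs describe the choice itself and were not tested, whereas the difference between groups took no part in it.

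The arrays held prefrontal cortex DNA (the Cg1, Cg3 and IL subregions, as bulk tissue) of Sprague-Dawley male rats at postnatal day (PND) 62, with 1 male from each litter and 1 array for each rat. Dams of the 4 PNS (prenatal stress) rats C141, C142, C144 and C145 had been restrained under bright light for 45 min, 3 times a day, through the final week of pregnancy, and dams of the 4 Ctrl rats C180, C182, C184 and C185 had not been disturbed. Values by rat are given below in these 2 orders. Each of 4 slides held a Ctrl rat at array position 1 and a PNS rat at position 2, and array position and group cannot be told apart. In bulk tissue, a different mix of cells and a different level in the same cells cannot be told apart either.

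In place of a read depth, an array offers the share of its spots that rise well over background, which was 61.0 to 72.9% for input and 43.6 to 67.1% for bound DNA. The arrays of C180, C182 and C141 stood apart before normalization, with an SD of the log2 ratio over probes of 0.70, 0.66 and 0.61, against 0.99 to 1.22 on the other 5. For several results that move with these 3 arrays, values are given with and without them.

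The share of short probes hardly narrowed the choice, since 16270 of the 20418 runs (79.7%) reached it. Of these short-rich runs, 49.7% had a level below the median. The share with a low level was 56.2% of 2812 runs with 33.3 to 50% short probes, 52.3% of 9595 runs with 50 to 90%, and 38.3% of 3863 runs with more, while 33.9% of the 499 runs without a short probe were low. Low levels were thus most frequent where short and full-length probes were mixed, and not where short probes were densest. The files hold no probe sequence and no genome of the build on which the probes were placed (rn4) was at hand, so that GC content, CpG number and the genes of the runs were not examined, and "short-rich" is used below in place of GC-rich.

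The 8081 low-signal runs held 130956 probes, 86581 short (66.1%) and 44375 of 60 bp, against 58.0% short probes on the whole array. A run had a median of 14 probes (quartiles 11 and 17, range 8 to 234) and spanned a median of 1169 bp, close to the 1163 bp of all other runs. Probe length went together with brightness. The input spot was well above background for 94.7% ± 1.5 (SD over the 8 rats) of 45-mers, 92.9% ± 2.3 of 46- to 52-mers, 91.0% ± 3.1 of 53- to 59-mers and 41.8% ± 7.6 of 60-mers. Pooled over all probes of the runs, short probes exceeded 60-mers in this share by 51.1 percentage points, with short probes ahead in 8 of 8 rats. In short-rich runs with a level above the median, the share was 96.3, 93.2, 90.1 and 40.3% in the same length classes. Input signal is part of the level that chose the runs, and no test is given. The bound spot was well above background for 24.4% ± 13.6 of the 60-mers, so that the level of most 60-mers rests on dim spots.

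The level of a run, averaged over rats, ranged from -1.32 to just below the median of all runs. The middle run stood at -0.47, with quartiles of -0.64 and -0.33. In 3677 runs it was below -0.5 and in 162 below -1. Over all 8081 runs, the mean level was -0.33, -0.39, -0.60 and -0.58 in the Ctrl rats and -0.31, -0.60, -0.60 and -0.60 in the PNS rats. The 3 values nearest to 0 belonged to the 3 arrays with a narrow spread, and the other 5 differed from each other by less than 0.02. On those 5 arrays 7595 runs (94.0%) were below 0 on every array, while 5005 (61.9%) were below 0 on all 8. Short-rich runs with a level above the median, 8189 in number, had a mean of 0.26, 0.24, 0.42 and 0.44 in Ctrl and 0.13, 0.41, 0.36 and 0.39 in PNS rats, again nearest to 0 on the narrow arrays.

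**Figure D1:**
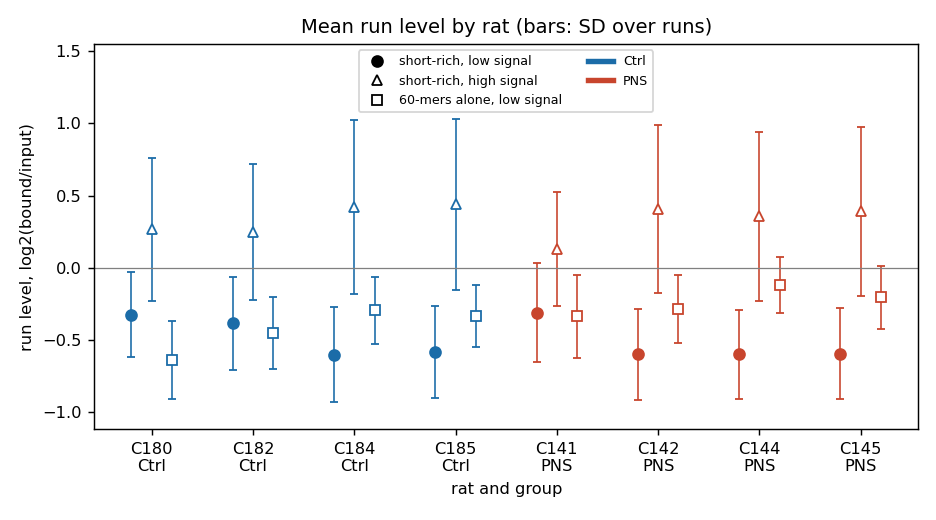
Mean level of the short-rich runs with low signal (filled circles, 8081 runs), the short-rich runs with high signal (triangles, 8189 runs) and the runs of 60-mers alone with low signal (squares, 169 runs) in each rat, as log2(bound/input); bars are the SD over runs. The low-signal and high-signal short-rich runs lie closer together in C180, C182 and C141 than in the other 5 rats.

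At the level bound, the runs just inside were chr6:95156912-95158146 and chr4:58474695-58475806, both at -0.1959, and those just outside were chr1:251027136-251039736 at -0.1954 and chr7:103878052-103878927 at -0.1953. At the bound on short probes, chr1:15582399-15583421 with 4 of 12 and chr1:18357353-18358528 with 7 of 21 were kept, and chr2:232934885-232944994 with 37 of 112 and chr14:17596113-17600509 with 18 of 55 were not. At the bound on length, 419 runs of 8 probes were kept, the first along the genome being chr1:34244158-34244819 and chr1:58877509-58878008. A further 289 runs of 7 probes met the other criteria, beginning with chr1:2231919-2232421 and chr1:16835714-16836356. Neither the level nor the share of short probes shows a gap at these bounds.

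The 6 lowest runs differed in how far the rats held together. The lowest was chr8:46106172-46106700, made of 8 short probes with 95.3% of input spots well above background. Its level was -0.65, -0.95, -1.24 and -1.59 in Ctrl and -1.38, -1.32, -1.74 and -1.70 in PNS rats, so that both groups overlapped. Next came chr5:136879279-136879905, with -1.31, -1.14, -1.75 and -1.46 in Ctrl and -0.93, -1.43, -1.27 and -1.27 in PNS rats. Every rat was below -0.9 in that run, narrow arrays included. The same was true of chr10:75382121-75383523, which had 22 probes and levels of -0.92, -1.01, -1.33 and -1.31 in Ctrl and -1.102, -1.60, -1.40 and -1.67 in PNS rats, and of chr1:186728671-186729865, where 10 short probes gave -1.31, -1.60, -1.28 and -1.07 in Ctrl and -1.20, -1.17, -1.15 and -1.43 in PNS rats. The remaining 2 were carried by the 5 other arrays. At chr15:42809415-42810698 the level was -0.22, -0.80, -1.95 and -1.82 in Ctrl and -0.80, -1.48, -1.80 and -1.66 in PNS rats. At chr7:10825105-10826066 it was -1.01, -0.37, -1.55 and -1.49 in Ctrl and -0.32, -1.61, -1.97 and -1.94 in PNS rats.

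Between rats of 1 group, the SD of a run's level had a median of 0.25 (quartiles 0.19 and 0.34) over the low-signal runs, against 0.24 (0.17 and 0.33) over the high-signal short-rich runs. The ranking of the low-signal runs was shared by some arrays and not by others. Over the 8081 runs, the Pearson correlation between arrays was 0.62 to 0.80 for the 10 pairs of the 5 other arrays, 0.20 to 0.41 for the 3 pairs of narrow arrays, and 0.04 to 0.20 for the 15 mixed pairs. With all 20418 runs the same ranges were 0.91 to 0.95, 0.57 to 0.71 and 0.54 to 0.75. In the high-signal short-rich runs, which were also cut by level, they were 0.89 to 0.95, 0.55 to 0.73 and 0.46 to 0.81. A cut by level can change such correlations, and runs of 1 array share its hybridization. These values are therefore a description across runs and not a test. The 3 runs with the smallest SD between rats all had 69 probes or more, such as chr1:21760485-21766117, with -0.39, -0.44, -0.37 and -0.41 in Ctrl and -0.34, -0.34, -0.39 and -0.35 in PNS rats. The 3 with the largest had 9 to 16 probes and split by array. In chr1:67770650-67771531 the level was 0.76, 0.36, -1.53 and -1.32 in Ctrl and 0.16, -0.98, -0.96 and -0.58 in PNS rats, with the 3 narrow arrays above 0 and the other 5 below. The 2 others, chr1:215239101-215239888 and chr10:87801789-87802975, were between -0.45 and 0.63 on the narrow arrays and between -1.75 and -1.21 on the others. The part of the array spread in these differences was not tested.

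Within the low-signal runs, the level varied with the length of the probe. In the mean of 8 rats it fell from -0.28 ± 0.13 (SD over rats, 29675 probes) at 45 bp to -0.81 ± 0.28 at 56 bp (4254 probes), was -0.77 ± 0.28 at 59 bp and stood at -0.42 ± 0.08 at 60 bp (44375 probes). Comparing probes of the same run, 45-mers were above 53- to 59-mers by 0.41, 0.30, 0.43 and 0.65 in Ctrl and by 0.21, 0.76, 0.69 and 0.80 in PNS rats, over 6579 runs with both. All 8 rats showed the same direction, and the difference was smallest on the narrow arrays. It was 0.53 ± 0.22 in the mean of rats and 0.57 ± 0.25 with bright probes alone, those whose input spot was bright in every rat. In the high-signal short-rich runs the same difference was 0.30 ± 0.05 and also positive in 8 of 8 rats. A difference by probe length was therefore seen on both sides of the level bound. It was found after the values had been seen and was not tested. Length also went with mean log2 input intensity, 10.56 in 45-mers and 9.99 in 53- to 59-mers of the low-signal runs. GC content, by which such designs set the length, was not examined. The parts of length, sequence and intensity in the difference were not tested.

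**Figure D2:**
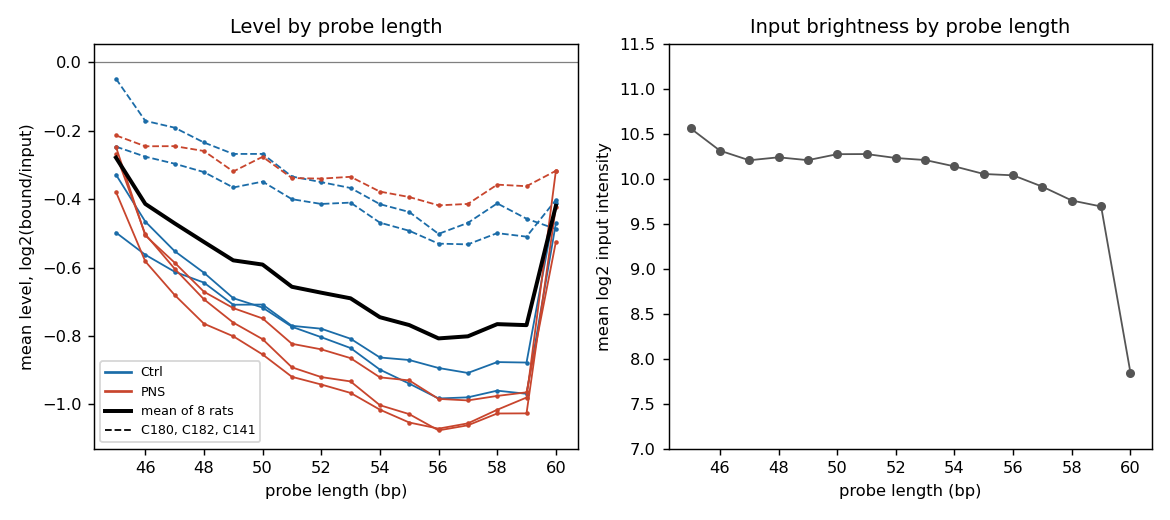
Left, mean level of the probes of the low-signal runs at each probe length (bp), as log2(bound/input), in each rat (thin lines, dashed for C180, C182 and C141) and as the mean of 8 rats (thick line); right, their mean log2 input intensity. The level falls from 45 to 56 bp and is higher again at 60 bp, where the input intensity is lowest.

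Short probes as a whole were not clearly lower than the 60-mers of the same run. The difference, short minus 60-mer, was 0.25, 0.05, -0.24 and -0.15 in Ctrl and 0.04, -0.03, -0.36 and -0.19 in PNS rats, over 7261 runs with both kinds. The narrow arrays were above 0 and the other 5 below it, with a mean of -0.08 ± 0.19. With bright probes alone the order turned: short probes were above 60-mers in 8 of 8 rats, by 0.25 ± 0.12 over 5208 runs, as the level of the 60-mers fell to -0.81 against -0.56 for short probes. In the high-signal short-rich runs, short probes were above 60-mers by 0.17 ± 0.08 over all probes and by 0.14 ± 0.03 over bright ones. Since short probes make up most of these runs and so most of the mean that chose them, the difference in low-signal runs is not independent of the choice, and no test is given.

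Single runs went far in both directions. Among 4612 runs with at least 4 probes of each kind, short probes were furthest above the 60-mers at chr12:28739896-28740943 (1.28), chr15:33712028-33713117 (1.24), chr15:3576725-3577625 (1.23) and chr4:154431228-154432025 (1.14). They were furthest below at chr5:149565203-149566182 and chr1:69110527-69111469 (-1.49 each), chr4:87931194-87932267 (-1.41) and chr10:31094834-31095672 (-1.26). Runs of the first kind had levels of -0.37 to -0.22, near the bound, and those of the second were at -0.78 to -0.65.

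The 60-mers, which have 1 length, were also described by their distance to the nearest short probe. In the low-signal runs their level was -0.46 ± 0.08 within 100 bp (22678 probes), -0.40 ± 0.08 at 100 to 200 bp, -0.34 ± 0.11 at 300 to 400 bp and -0.29 ± 0.11 at 400 to 500 bp (1059 probes). High-signal short-rich runs ran the other way, from 0.18 ± 0.13 within 100 bp to 0.03 ± 0.16 at 400 to 500 bp. Over all short-rich runs, without regard to level, the mean of rats was -0.17 ± 0.05 within 100 bp and -0.16 ± 0.12 at 400 to 500 bp. Single rats went both ways, from -0.25 to -0.42 in C180 and from -0.09 to -0.01 in C144. The part of the choice by level in the rise seen in low-signal runs was not tested. In 727 runs with both, 60-mers within 200 bp of a short probe were below those at 400 bp or more by a mean of 0.21. The difference, near minus far, was -0.03, -0.19, -0.23 and -0.22 in Ctrl and -0.14, -0.31, -0.25 and -0.28 in PNS rats, below 0 in 8 of 8 rats. With bright probes alone it was -0.20 ± 0.06 over 156 runs. Near 60-mers were brighter than far ones, with 44.1% against 28.1% of input spots well above background. In high-signal short-rich runs the difference was 0.05 ± 0.07. Near 60-mers outnumber far ones, 35536 to 2155, and so weigh more in the mean that chose the runs. Over the 1274 short-rich runs with both kinds, chosen without regard to level, it was -0.10 ± 0.07 and below 0 in 7 of 8 rats.

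The signal was lowest in the middle of the runs. In runs of up to 1500 bp, short probes within 100 bp of the run's centre had a level of -0.62 ± 0.23, against -0.43 ± 0.15 at 500 to 600 bp from it. The outer probes were higher in each rat, from -0.29 to -0.19 in C180 and from -0.87 to -0.59 in C144. For 60-mers the corresponding levels were -0.47 ± 0.06 and -0.40 ± 0.08. High-signal short-rich runs also had their lowest short probes at the centre, with 0.38 ± 0.12 there and 0.45 ± 0.12 at 500 to 600 bp, whereas their 60-mers had 0.16 ± 0.15 at the centre and 0.16 ± 0.14 at 500 to 600 bp. At 600 to 700 bp, the short probes of low-signal runs were at -0.45 ± 0.18. Over all short-rich runs, without regard to level, short probes had -0.10 ± 0.08 at the centre and 0.05 ± 0.05 at 500 to 600 bp. Their 60-mers had -0.18 ± 0.08 and -0.13 ± 0.08. The lengths of short probes were not matched by position, and the part of the choice by level was not tested. Where the transcription start of a promoter lies in each run was not examined.

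**Figure D3:**
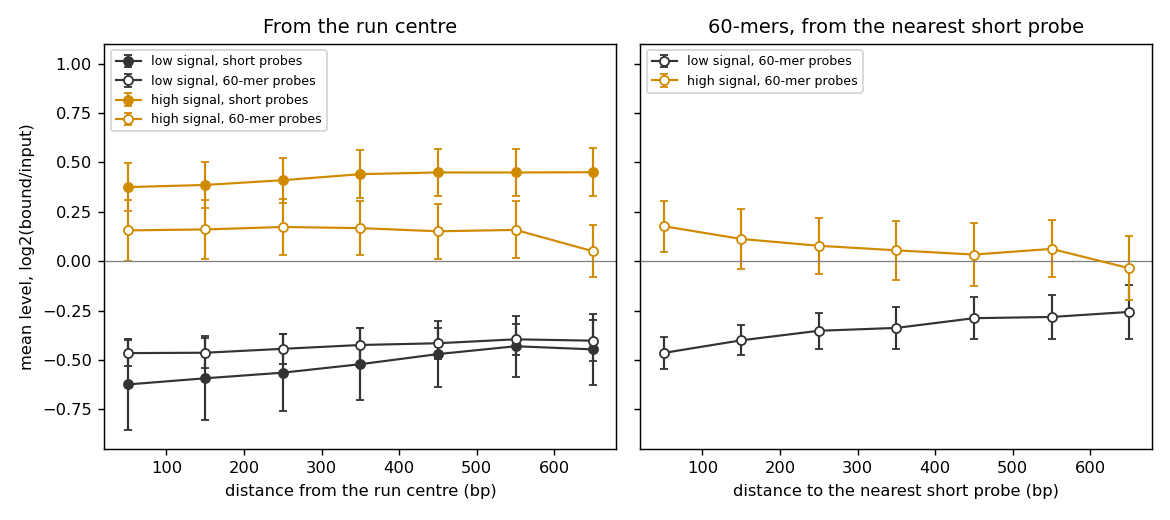
Mean level, as log2(bound/input), of short probes (filled) and 60-mers (open) against distance from the run's centre (left), and of 60-mers against distance to the nearest short probe (right), in bp, for low-signal and high-signal short-rich runs; points are means of 8 rats and bars the SD over rats. In low-signal runs the level rises up to 600 bp from the centre and away from short probes, while in high-signal runs that of 60-mers falls away from short probes.

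The comparison of PNS with Ctrl rats asked whether prenatal stress went with another level in these runs. As a whole, they did not differ beyond the spread of the rats. The mean level was -0.47 ± 0.14 (SD, n = 4) in Ctrl and -0.53 ± 0.14 in PNS rats, a difference of -0.05 with an SE of 0.10 (two-sided exact permutation test, p = 0.74, the smallest that 4 against 4 allows being 0.029). On the 4 slides the difference was 0.01, -0.21, 0.00 and -0.01, and the slide with -0.21 paired the narrow array of C182 with C142. Without the 3 narrow arrays the difference was -0.0047, without C141 alone -0.12 and without C180 alone -0.0030. It was -0.19 under median centring (exact permutation test, p = 0.20), -0.14 with bright probes, -0.10 in the authors' value table and -0.01 under loess, with no alternative past the threshold. In high-signal short-rich runs it was -0.02 (exact permutation test, p = 0.80). The test of the distance between low-signal and high-signal runs gave a difference between groups of -0.03 (exact permutation test, p = 1).

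Single probes were counted by the first-stage rule of the study's methods, a limma p not above 0.05 before adjustment together with a difference of 0.5 or more. It marked 6575 probes of the low-signal runs, 5.02%, beside 4.85% of all 375449 probes. Lower in PNS were 3583 of them, 2.74% beside 2.24% of all, and higher were 2992, 2.28% beside 2.61%. No probe of the array passed the Benjamini-Hochberg adjustment, the smallest adjusted limma p being 0.968. The count depended on rat C141, without which it was 15353 probes, 11.7% beside 9.21%, with 11269 lower in PNS, 8.61% beside 5.36%, and 4084 higher, 3.12% beside 3.85%. Without the 3 narrow arrays it was 13296, 10.2% beside 9.55%. Among 60-mers 6.19% were marked and among short probes 4.42%, beside 6.21% and 3.87% over the whole array.

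With 1 value for each rat and run, 240 low-signal runs (2.97%) reached a limma p of 0.05 or less before adjustment, beside 4.03% of the 25622 runs of at least 3 probes. Lower in PNS were 171, 2.12% beside 1.8%, and higher were 69, 0.854% beside 2.23%. After adjustment over all runs, 0 low-signal runs were called at an adjusted limma p of at most 0.2, beside 0% of all, and the smallest adjusted p was 0.9998. All PNS rats were below all Ctrl rats in 1.76% of low-signal runs, beside 1.45% of the 20418 runs, and above them in 76 runs, 0.94% beside 1.8%. Without C141, 880 runs had such an unadjusted p, 10.9% beside 11.1%. Without the 3 narrow arrays, which leaves 2 Ctrl and 3 PNS rats, 376 low-signal runs were called at an adjusted p of at most 0.2, 4.65% beside 5.58%. Lower in PNS were 205 of them, 2.54% of low-signal runs beside 3.13% of all. The two-stage rule of the study's methods, a rank-sum test that treats the probes of a run as independent, called 818 runs, 10.1% beside 10.7% of all. Lower in PNS were 662 of these and higher 156, and the share of all runs by direction is not given. Like the first-stage rule, it was applied here to log2 ratios, and to runs in place of promoters. The study describes promoters and methylation estimates modelled from probe intensities. The median difference between PNS and Ctrl was -0.05 over the 8081 runs, against 0.00 over all runs tested.

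The runs with the smallest unadjusted p had separate groups, which a choice by smallest p favours. At chr7:113950289-113951563 (15 probes, 11 short) the level was -0.31, 0.01, -0.09 and -0.28 in Ctrl and -0.78, -0.70, -0.75 and -0.67 in PNS rats, with every PNS rat below every Ctrl rat. The difference was -0.56 with an SE of 0.13 (limma, unadjusted p = 0.00128, adjusted p = 0.9998). A run of 18 short probes at chr5:172974088-172975293, just inside the level bound, had 0.08, 0.12, 0.12 and 0.01 in Ctrl and -0.65, -0.31, -0.69 and -0.33 in PNS rats. It was above 0 in every Ctrl and below 0 in every PNS rat, a difference of -0.58 (SE 0.14). On the same chromosome, 14 short probes at chr5:158403373-158404405 gave -0.38, -0.11, -0.37 and -0.40 in Ctrl and -0.74, -0.86, -0.83 and -0.80 in PNS rats, a difference of -0.50 (SE 0.13). Higher in PNS were chr5:157009781-157010433 with -0.73, -1.14, -1.15 and -0.84 in Ctrl and -0.09, -0.61, -0.47 and -0.45 in PNS rats, chr3:137490241-137491462 with -0.76, -0.76, -0.35 and -0.41 against -0.14, 0.00, -0.07 and -0.10, and chr2:122719822-122720488 with -0.68, -0.49, -0.56 and -0.78 against -0.05, -0.33, -0.23 and -0.09. Their differences were 0.56, 0.49 and 0.46, none with overlapping groups, and their adjusted limma p was 0.9998 as well. The first of these 3 was dim, with 52.8% of input spots well above background.

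**Figure D4:**
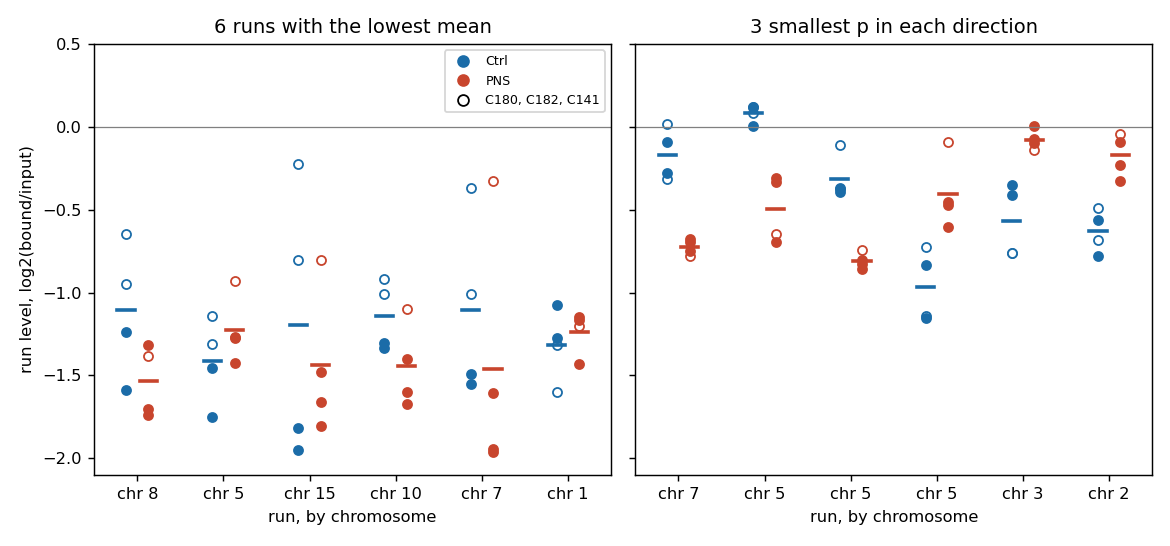
Level of each rat, as log2(bound/input), in the 6 low-signal runs with the lowest mean (left) and the 3 with the smallest unadjusted limma p in each direction (right), labelled by chromosome; open circles are C180, C182 and C141 and horizontal lines the group means. On the left the groups overlap and the narrow arrays are often nearest to 0, whereas on the right the groups are separate, which the choice by smallest p favours.

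Among the probes of the low-signal runs marked by the first-stage rule, 1270 had both spots well above background on all 8 arrays, 2.77% of such bright probes in the low-signal runs beside 2.53% on the whole array. Lower in PNS were 974, 2.12% beside 1.86%. Of the 8 with the largest difference among those whose groups did not overlap, 7 were lower in PNS and all had lengths of 45 to 57 bp. The probe at chr15:79772500-79772548 had 0.32, 0.11, -1.34 and -1.27 in Ctrl and -1.67, -1.45, -2.72 and -2.15 in PNS rats, a difference of -1.45 (SE 0.46). At chr10:105261326-105261375 the values were 0.37, -0.21, -0.72 and -0.59 in Ctrl and -0.996, -1.74, -2.36 and -1.82 in PNS rats, a difference of -1.45 (SE 0.36). Its run of 18 probes had an unadjusted limma p of 0.00303 (adjusted p 0.9998). The probe that was higher in PNS, at chr10:51290209-51290253, had -1.68, -1.72, 0.17 and 0.09 in Ctrl and 0.30, 0.22, 1.12 and 0.46 in PNS rats. In it both narrow Ctrl arrays lay far below the remaining Ctrl rats. The difference of its run of 8 probes had an unadjusted limma p of 0.739 (adjusted p 0.9998). The other 5 differed by -1.31 to -1.24, and their runs had an unadjusted limma p of 0.0246 to 0.942. In the probes lower in PNS, the narrow Ctrl arrays C180 and C182 lay above C184 and C185, apart from chr10:14363248-14363295. The adjusted limma p was 0.968 for each of the 8.

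The longest low-signal runs were chr6:132530024-132548513 with 234 probes, chr4:105646399-105664008, chr10:56110482-56124875, chr2:191015527-191029417 and, with 134 probes, chr8:68364244-68374472. Their levels were -0.60, -0.60, -0.26, -0.25 and -0.55. On chromosome 6 the run of 234 probes stood at -0.56, -0.51, -0.63 and -0.71 in Ctrl and -0.34, -0.68, -0.60 and -0.71 in PNS rats. The difference between groups was 0.02 (SE 0.14) there and between -0.15 and 0.02 in the other 4, smaller than the SE in all 5. Of 5 runs in the Ank3 locus on chromosome 20, the gene of ankyrin-G that the study followed up, 3 were among the low-signal runs. Their levels were -0.45, -0.22 and -0.26, and their differences between PNS and Ctrl were 0.03, -0.03 and 0.02, with SEs of 0.13 to 0.17. The study's own result at Ank3 was for single probes and not for run means. It reported a probe in the Ank3 run at -0.26 as more methylated in PNS rats, with the same direction by qPCR. The probes it reported as less methylated lay in an Ank3 run with a level of -0.36, below the level bound. That run was left out because only 3 of its 13 probes were short. A mean over all probes of a run does not test a single probe, and no difference for these probes is given here.

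The 169 runs of 60-mers alone with a level below the median are the nearest comparison without short probes. They were dim, with a median of 21.3% of input spots well above background against 78.6% in the short-rich low-signal runs. Their mean level was -0.64, -0.45, -0.29 and -0.33 in Ctrl and -0.34, -0.29, -0.12 and -0.21 in PNS rats. Here the narrow arrays were furthest from 0, opposite to the short-rich runs. PNS rats were higher by 0.19 (SE 0.09), which was not past the threshold (two-sided exact permutation test, p = 0.086).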

How the data were processed

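MeDIP-chip was performed by the authors on prefrontal cortex DNA of 4 Ctrl and 4 PNS rats, with bound DNA in Cy5 and input DNA in Cy3. Feature Extraction corrected each deposited intensity for background and scaled the dyes within an array. The deposited log10 ratio of the same software and the authors' table of quantile-normalized log2 ratios of background-subtracted median signals were used as alternatives only. The ranks of that table matched the scanner ratios, and its column medians ranged from -0.54 to -0.53.

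For each of 414785 spots (5503 control spots left out) the log2 ratio of bound over input was computed. The 375449 probes, 39336 of them spotted more than once, were averaged and quantile-normalized. PNS and Ctrl were tested against each other in limma 3.58.1 (R 4.3.3), over all probes and over all 25622 runs of at least 3 probes, with Benjamini-Hochberg adjustment. Values with 1 number for each rat were compared by exact permutation tests. The scripts were tested on simulated data. Members, lists and tests were chosen with earlier results of these data known.

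Regions were named by rank: lowest level, smallest unadjusted p in each direction, nearest to each bound, most probes, extreme difference between probe kinds, extreme SD, and largest differences among bright first-stage probes without overlap. Positions are those of the files, on rn4. Alternatives were other ratios, normalizations, background correction (normexp with offset 50, on median signals, the mean signal not being among the columns used here), filters, gaps, limits, each rat left out, and the slide as a block. Same-slide rats deviated together on 3 of 4 slides (correlations over low-signal runs 0.21, -0.28, 0.29 and 0.29), but the 12 pairs on different slides ranged from -0.46 to 0.45, with 5 above 0.1, so the slide does not stand out as a pairing. Nothing says that samples of a group are more than separate rats of 1 cohort, and 8 arrays limit the precision.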

Additional observations from a re-analysis of the deposited data

Results flagged for a closer look

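In 6 of 76 groups of 4 rats examined, 1 rat lay far from the other 3. Several of these groups were runs or probes named for their values, and all come from the same 8 rats. The count is therefore not set against a rate by chance. For the mean level over the low-signal runs, PNS rat C141 was at -0.31 and the others at -0.60. For the 53- to 59-mers of these runs, C141 was at -0.38 and the others between -1.02 and -0.94. In the run chr10:87801789-87802975, C141 was at -0.37 and the others between -1.72 and -1.55. Ctrl rat C182 was at -0.11 in the run chr5:158403373-158404405, with the others between -0.40 and -0.37, and at 0.47 for the probe at chr10:14363248-14363295, with the others between -0.63 and -0.49. In the run chr1:21760485-21766117, PNS rat C144 was at -0.39 and the others between -0.35 and -0.34. C141 and C182 are 2 of the 3 arrays with a narrow spread of log ratios, and the part of that spread was not tested.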

How the results depend on the processing

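The number of low-signal runs was between 5736 (at least 12 probes) and 8202 (median centring) under all alternatives run. Short minus 60-mer level turned from -0.08 to 0.25 with bright input probes alone and to 0.25 in the authors' value table and was -0.20 under loess. As the choice of runs used these levels, nothing is read from tests of this contrast or the next. With each rat left out, short minus 60-mer level was between -0.13 and -0.04, and without C180, C182 and C141 it was -0.19. Near minus far 60-mers were below 0 in every alternative run, from -0.26 without C180, C182 and C141 to -0.061 in the value table and -0.042 under normexp. Leaving out each rat gave -0.23 to -0.19. First-stage probes in low-signal runs, 6575 in the analysis reported, were 653 under normexp, 3119 with a difference of at least 1, 13296 without the 3 narrow arrays, and 4470 to 15353 with each rat left out, the highest without C141. For normexp, the difference of at least 1 and rats other than C141, the share of all probes is not given. Those counts are not read as a result about these runs. Runs with an adjusted limma p of at most 0.2, none in the analysis reported, where 240 had an unadjusted p of at most 0.05, were 376 without the narrow arrays and 0 with each rat left out, while the two-stage rule, which adjusts rank-sum p-values, called 818. Causes were not tested. Taking slide as a replicate block, the mean level differed by -0.05 (exact permutation of signs over 4 slides, p = 0.75, smallest possible 0.125), 9058 probes were marked (6.92% beside 6.14% of all), 339 runs had an unadjusted p of at most 0.05 (4.2% beside 5.28%) and 0 runs were called after adjustment. Dim bound spots limit what 60-mers can show.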

Other observations

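Low-signal runs lay near each other along the chromosomes. A run was a low-signal run in 46.4% of cases where the run before it was one and in 35.1% where it was not, over 20398 neighbouring pairs. The median distance from a low-signal run to the nearest other run of any kind was 18774 bp, against 21873 bp for high-signal short-rich runs. That distance describes how densely runs lie, and not how close low-signal runs lie to each other. The longest unbroken series was 15 low-signal runs at chr1:207579441-207928911, with a mean level of -0.54, followed by 13 at chr1:163218274-163497448, with -0.41. Neighbouring runs are a description, with no test.

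By chromosome, low-signal runs made up 34.2% (chromosome 20) to 46.4% (chromosome 12) of runs. Chromosomes 12, 19 and 10 had both the highest shares of short-rich runs, 95.8, 91.4 and 88.3%, and the highest shares of low-signal runs, 46.4, 43.4 and 45.4%. Chromosome 20 had 86.4% short-rich runs but the lowest share of low-signal ones. In the window of chromosome 3 from 15 to 18 Mb, 7 of 48 runs were low-signal runs.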
